A study of Homo sapiens with 22 samples.

Results

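The comparison described here is the early change of the LS180 transcriptome under actinomycin D, at 2 h against 0 h of treatment. LS180 is a mucin-producing human colorectal adenocarcinoma line, and actinomycin D, an antibiotic that intercalates into DNA, stops RNA polymerases from elongating. The comparison uses 6 of the 22 libraries of a series on Staufen1, an RNA-binding protein, and FOXA1, a transcription factor whose mRNA it is studied with. They were taken by their labels, and are 3 libraries of LS180 cells given actinomycin D at 5 µg/ml for 2 h and 3 of LS180 cells labelled with the same agent at 0 h, all of total RNA. Further libraries enter for comparison, namely 3 at 2 h and 3 at 0 h of HCT116, a colorectal carcinoma line given the same agent, and 2 siSTAU1 and 2 siCTRL libraries of LS180 cells given an siRNA against STAU1 or a control siRNA over a pair of 72 h periods. Whether the 3 libraries of a group were grown as separate cultures is not stated in the labels. Their spread may then be technical, and the p-values measure no more than such spread. It was pooled over all 18 actinomycin D libraries, which include libraries of both lines at 4 h. No genotype, clone or further agent is named for the LS180 actinomycin D groups.

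When transcription stops, an RNA's level follows its decay. Short-lived mRNAs, among them those of immediate early transcription factors, feedback inhibitors and cytokines, are lost within hours, and many carry AU-rich elements in the 3′ untranslated region that bring in deadenylases. Long-lived mRNAs, among them those of ribosomal proteins and metabolic enzymes, remain. Replication-dependent histone mRNAs have no poly(A) tail and are kept at a level set by DNA synthesis. Because counts are scaled to the RNA that remains, a lower level here is a loss relative to other transcripts and a higher level need not be a gain in molecules.

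The libraries held 55.0 to 60.2 M expected counts at 2 h and 50.9 to 54.6 M at 0 h (M, mega-counts). Markers fixed for the cell type were mostly present. Of the 14 intestinal epithelial markers, all measured, 13 were above 1 CPM at 0 h. KRT20 was not, with means of 0.292 CPM at 2 h and 0.303 at 0 h. The summed level of the 14 was 4708 to 5238 CPM at 2 h and 4554 to 4734 at 0 h. In these sums CPM is relative to the library total, with no TMM scaling. The 8 goblet markers summed to 1303 to 1470 CPM at 2 h and 1112 to 1264 at 0 h. This was mostly AGR2, with means of 1114 CPM at 2 h and 971 at 0 h, while MUC2 averaged 3.29 and 3.08. Fibroblast markers summed to 1.13 to 1.64 CPM at 2 h and 1.24 to 1.51 at 0 h, with COL1A2 at 0 in all 6 libraries. The 4 endothelial markers counted, 3 of them above the filter, summed to 0.400 to 0.432 at 2 h and 0.511 to 0.696 at 0 h. PECAM1, also fixed as an endothelial marker, was not among the 4. Of the 6 immune markers 2 passed the filter on low counts, CD3E was at 0 in all 6 libraries, and the sum of 62.1 to 76.0 at 2 h and 49.4 to 62.5 at 0 h was mostly LYZ, the lysozyme gene, which some intestinal cells also express. In bulk RNA, fewer cells of a type and less RNA per cell cannot be told apart.

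From here on levels are given per library as TMM-scaled CPM, in the order of the replicate numbers. A gene was called lower or higher where edgeR's quasi-likelihood test gave a Benjamini-Hochberg adjusted p under 0.05 over the 17256 genes tested. At 2 h 4121 genes, or 23.9% of those tested, were lower and 2329, or 13.5%, were higher than at 0 h, and the median log2 fold change of all genes was -0.02. The falls were far larger than the rises. At least 2-fold lower were 1604 genes (9.30%), at least 4-fold lower 546 (3.16%), at least 8-fold lower 184 and at least 16-fold lower 43. Only 65 called genes were at least 2-fold higher, and 2 of these averaged 5 CPM or more, against 272 of the genes at least 4-fold lower. The genes at least 4-fold lower took 0.297% of all CPM at 2 h and 2.37% at 0 h.

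The split into lower and higher depended on the scaling, and the strong falls moved less. With TMM 63.9% of all calls were lower. With RLE size factors, which moved the median of all genes by 0.11 on the log2 scale, 3364 genes were lower and 4863 higher (40.9% of calls lower). Scaled to the summed counts of ribosomal protein genes, which moved it by -0.23, 5598 were lower and 55 higher (99.0% lower). With total library size the counts were 3797 and 1095 (77.6% lower), and without the 2 h library 2 they were 3007 and 4309 (41.1% lower). Leaving out that library moved the median of all genes by 0.11, as RLE size factors did. Leaving out any other library moved it by at most 0.01. Of the 546 genes at least 4-fold lower, 486 were so with RLE size factors, 545 with ribosomal protein scaling and 469 without the 2 h library 2. Without the 0 h library 2, 1478 genes were higher. Small changes are therefore given beside their value with ribosomal protein scaling or their distance from the median of all genes.

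**Figure D1:**
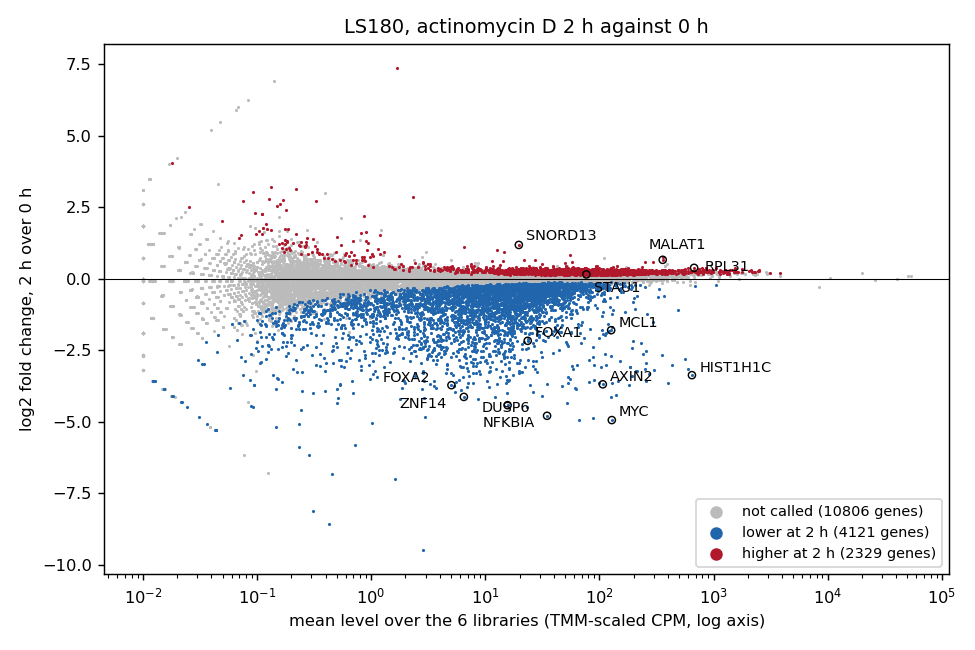
Mean level over the 6 LS180 libraries (TMM-scaled CPM, log axis) against the log2 fold change at 2 h over 0 h, 1 dot per gene tested, with 4121 genes called lower in blue, 2329 called higher in red and the rest in grey. The lower genes reach -4.94 among genes averaging 5 CPM or more (MYC), while the higher genes of that level form a narrow band near 0.

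The largest fall among ranked genes was that of MYC, the proto-oncogene transcription factor (ENSG00000136997). Its 3 libraries stood at 8.99, 7.41 and 7.90 CPM at 2 h, against 271, 247 and 229 CPM at 0 h. The groups lay far apart, and MYC was 30.7-fold lower (log2 fold change -4.94, SE 0.118; edgeR adjusted p = 1.28e-15). Of its 0 h level 3.26% remained. DUSP6, the phosphatase that switches off ERK (ENSG00000139318; chromosome 12, 89347232 to 89353271 on the minus strand of GRCh38), was at 2.09, 2.26 and 2.92 CPM at 2 h, against 61.8, 67.5 and 72.4 CPM at 0 h, a 27.6-fold fall (log2 fold change -4.79, SE 0.118; edgeR adjusted p = 1.68e-15). NFKBIA, which encodes the NF-κB inhibitor IκBα (ENSG00000100906; chromosome 14, 35401511 to 35404749, minus strand, GRCh38), was at 1.5, 1.51 and 1.21 CPM at 2 h, against 29.3, 30.9 and 29.8 CPM at 0 h, 21.4-fold lower. Others of the 12 largest falls among ranked genes, histone genes aside, were SPRY2 (22.7-fold), DDIT4 (20.4-fold), ZNF14 (17.5-fold), SMAD7 (17.4-fold), IER3 (17-fold), TNFSF9 (16-fold) and SERTAD3 (15.6-fold). Ranked genes are those matched to the annotation. The unmatched histone gene HIST1H2BG (17.6-fold) fell by more than ZNF14, SMAD7, IER3, TNFSF9 and SERTAD3. HIST1H4B (16.8-fold), also unmatched, fell by more than TNFSF9 and SERTAD3. In each of these the 3 libraries at 2 h lay below the 3 at 0 h, which was a condition for a ranked gene. Of the 4121 lower and 2329 higher genes together, 6389 had groups that did not overlap. SPRY2, SMAD7 and NFKBIA are feedback inhibitors of growth factor, TGF-β and NF-κB signalling, DDIT4 encodes an mTOR inhibitor, and TNFSF9 a cytokine of the TNF family.

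FOXA1, FOXA2 and FOXA3, pioneer factors of endoderm-derived epithelia, were all at least 4-fold lower. FOXA1 (ENSG00000129514; chromosome 14, 37589984 to 37596059 on the minus strand of GRCh38) was at 8.41, 8.48 and 8.73 CPM at 2 h, against 40.4, 36.8 and 38.6 CPM at 0 h. FOXA2 (ENSG00000125798; chromosome 20, 22581005 to 22585455, minus strand, GRCh38) was at 0.748, 0.598 and 0.782 CPM at 2 h, against 10, 9.34 and 8.89 CPM at 0 h. FOXA3 (ENSG00000170608; chromosome 19, 45863989 to 45873797, plus strand, GRCh38) was at 0.765, 1.10 and 0.912 CPM at 2 h, against 7.16, 6.78 and 6.09 CPM at 0 h. The groups did not overlap for any of the 3 genes, as was so for 6389 of the 4121 lower and 2329 higher genes. FOXA2 was 13.2-fold lower (log2 fold change -3.72, SE 0.180; edgeR adjusted p = 3.02e-10), FOXA3 7.21-fold (-2.85, SE 0.197; 8.54e-10) and FOXA1 4.52-fold (-2.17, SE 0.142; 3.83e-10). After 2 h 7.58% of FOXA2, 13.9% of FOXA3 and 22.1% of FOXA1 was left relative to the other RNA. The Staufen genes did not share this fall. STAU1 was at 80.1, 78.3 and 84.6 CPM at 2 h, against 75.2, 72.6 and 71.0 CPM at 0 h (log2 fold change 0.15, edgeR adjusted p = 0.0299), and this difference turned to -0.08 with ribosomal protein scaling (edgeR adjusted p = 0.661). The STAU1 call was also lost without the 0 h library 2 or 3 or the 2 h library 1 or 3. STAU2, its paralog, was at 45.6, 44.5 and 44.1 CPM at 2 h, against 40.6, 39.8 and 44.6 CPM at 0 h (log2 fold change 0.10, edgeR adjusted p = 0.210), and the groups overlapped; it was called higher without the 2 h library 2.

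The FOXA genes are part of a list of 23 tested intestinal transcription factors, of which 18 fell and 0 rose, with a median log2 fold change of -1.46. HES1, a Notch target that represses secretory fate, was at 2.87, 2.5 and 1.96 CPM at 2 h, against 30.1, 27.5 and 30.3 CPM at 0 h, a 12-fold fall. ELF3, an epithelial ETS factor, was 4.70-fold lower, with 9.08, 9.11 and 9.27 CPM at 2 h, against 41.1, 43.4 and 44.7 CPM at 0 h. ATOH1, the master factor of the secretory lineage, fell by 3.23 on the log2 scale from a low level, with 0.255, 0.187 and 0.179 CPM at 2 h, against 2.54, 1.83 and 1.51 CPM at 0 h. The lineage factors differed among themselves. GATA6 (log2 fold change -1.76), SOX9 (-1.57), CDX2 (-1.46) and ASCL2 (-1.06) fell by intermediate amounts and HNF4A by little (-0.26, edgeR adjusted p = 0.00836). CDX1, at 112, 116 and 110 CPM at 2 h and 120, 116 and 110 CPM at 0 h, EHF (log2 fold change -0.06), HNF4G (-0.19) and SPDEF (0.36) did not pass the test. Without the 2 h library 2, 1 member was called higher. ATOH1 and the factors named after it were chosen after their values were seen.

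Immediate early genes, which are switched on by growth signals without new protein, fell almost throughout. Of 22 tested members of the AP-1 and immediate early list 20 fell, 18 of them at least 2-fold and 12 at least 4-fold, and the median log2 fold change was -2.11. JUNB, an AP-1 subunit, stood at 3.82, 3.40 and 3.24 CPM at 2 h, against 42.4, 50.7 and 45.9 CPM at 0 h, 13.3-fold lower (edgeR adjusted p = 1.1e-12). IER3 was 17-fold lower, IER5 8.88-fold and JUN 7.77-fold, with 4.27, 4.30 and 4.51 CPM of JUN at 2 h, against 34.6, 34.3 and 32.8 CPM at 0 h. FOSB alone rose, at a low level of 1.63, 1.64 and 0.831 CPM at 2 h, against 0.482, 0.447 and 0.395 CPM at 0 h (log2 fold change 1.62, edgeR adjusted p = 0.000404), so the list did not move wholly in 1 direction. NR4A3 did not pass the test (log2 fold change -0.63). Both were chosen after their values were seen.

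KLF factors, zinc finger regulators of epithelial growth and differentiation, showed 10 of 14 tested members lower and 0 higher (median log2 fold change -1.58). KLF10, a TGF-β early gene, was 10.6-fold lower, with 2.62, 2.95 and 2.28 CPM at 2 h, against 26.7, 27.2 and 29.2 CPM at 0 h. KLF6 was 9.29-fold and KLF4, a gut differentiation factor, 8.73-fold lower, while KLF3 kept more of its level, with 23.2, 24.2 and 24.1 CPM at 2 h, against 92.2, 86.8 and 89.7 CPM at 0 h. In the MYC network 8 of 13 tested members fell and 1 rose (median -0.48), and the members split by size. MYCL (log2 fold change -1.09) and the MYC antagonist MXD1 (-2.19, with 3.18, 3.32 and 3.05 CPM at 2 h, against 14.8, 14.1 and 14.8 CPM at 0 h) fell with MYC. MAX, the shared partner, differed by 0.14, with 38.1, 39.8 and 39.9 CPM at 2 h, against 36.5, 35.6 and 34.9 CPM at 0 h, and by -0.09 with ribosomal protein scaling. The call of MAX was lost without the 0 h library 2 or 3 or the 2 h library 3, which left 0 members higher, and 2 were higher without the 2 h library 2.

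Negative feedback genes of ERK, NF-κB and TGF-β signalling were among the strongest falls. All 19 tested members of the ERK feedback list, which holds dual-specificity phosphatases and Sprouty genes, were lower, 11 of them at least 4-fold, with a median log2 fold change of -2.40. SPRY2, an inhibitor of receptor tyrosine kinase signalling, stood at 1.97, 1.81 and 2.13 CPM at 2 h, against 44.5, 46.7 and 43.4 CPM at 0 h. TRIB1, a pseudokinase gene, was 11.6-fold and SPRY4 10.4-fold lower, while the smallest fall of the list, DUSP14, chosen after its value was seen, was -0.33.

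In the NF-κB list of inhibitors, subunits and target ligands 17 of 23 tested members fell and 0 rose (median -1.37). LIF, an IL-6 family cytokine, was 7.74-fold lower, with 1.27, 1.51 and 1.87 CPM at 2 h, against 11.5, 12.4 and 12.3 CPM at 0 h. ZC3H12A, which encodes the endonuclease Regnase-1, was 7.15-fold and the transcription factor IRF1 6.55-fold lower. Among the subunit genes REL and RELB were lower, by log2 fold changes of -0.79 and -0.49, while NFKB1 had 0.15 (edgeR adjusted p = 0.0590) and NFKB2 -0.19 (edgeR adjusted p = 0.0667), neither called. These 4 were chosen after their values were seen. Higher members were 1 without the 0 h library 1 and 3 without the 2 h library 2.

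Of the Notch, BMP and TGF-β feedback list 16 of 20 tested members fell, 7 of them at least 4-fold, and 0 rose (median -0.99). SMAD7, the inhibitory SMAD, was at 1.00, 1.42 and 1.52 CPM at 2 h, against 22.1, 24.2 and 22.4 CPM at 0 h. BAMBI, a decoy receptor of the pathway, was 13.9-fold lower. The BMP targets ID1 and ID3, which encode inhibitors of helix-loop-helix factors, were 11-fold and 8.58-fold lower, with 18.5, 23.7 and 23.1 CPM of ID3 at 2 h, against 179, 201 and 180 CPM at 0 h.

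The Wnt list divided into genes that fell steeply and genes near the median. Of its 20 tested members 7 fell, 6 of them at least 2-fold, and 0 rose, and its median of -0.03 stood next to that of all genes. AXIN2, the scaffold that limits β-catenin, was at 13.5, 16.4 and 16.4 CPM at 2 h, against 196, 204 and 197 CPM at 0 h, 12.9-fold lower (edgeR adjusted p = 6.03e-14). EPHB3, an ephrin receptor of the crypt, was 8.48-fold lower, and the ubiquitin ligase genes ZNRF3 and RNF43, which remove Wnt receptors, were 4.84-fold and 3.82-fold lower. The stem cell marker LGR5 did not pass the test, at 60.5, 59.0 and 60.9 CPM at 2 h and 56.9, 52.9 and 54.7 CPM at 0 h, nor did EPHB2 at 374, 373 and 392 CPM at 2 h and 387, 352 and 332 CPM at 0 h, both chosen after their values were seen. Without the 2 h library 2, 3 members were called higher.

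YAP targets, which report on Hippo signalling, had 8 of 15 tested members lower and 1 higher (median -0.65). AMOTL2, a YAP inhibitor, was 4.69-fold lower, with 3.71, 4.07 and 3.71 CPM at 2 h, against 16.5, 18.8 and 18.6 CPM at 0 h, and F3, the tissue factor gene, was 3.52-fold lower. NT5E differed by 0.26, and by 0.03 with ribosomal protein scaling, and lost its call without the 0 h library 1 or 2 or the 2 h library 3; 2 members were higher without the 2 h library 2. In the EGF receptor family and its ligands 3 of 12 tested members fell and 1 rose (median 0.08). The 25.0% lower lies near the 23.9% of all genes. The 3 that fell were ligands. AREG was at 15.5, 15.3 and 15.5 CPM at 2 h, against 32.4, 31.6 and 33.8 CPM at 0 h, EREG at 77.8, 85.8 and 86.6 CPM at 2 h, against 157, 164 and 177 CPM at 0 h, and HBEGF, chosen after its value was seen, fell by 2.7 on the log2 scale. The receptor gene ERBB2 stood at 158, 161 and 173 CPM at 2 h and 146, 135 and 132 CPM at 0 h (log2 fold change 0.25, and 0.02 with ribosomal protein scaling). Higher members of this family were 2 without the 0 h library 3 and 4 without the 2 h library 2.

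**Figure D2:**
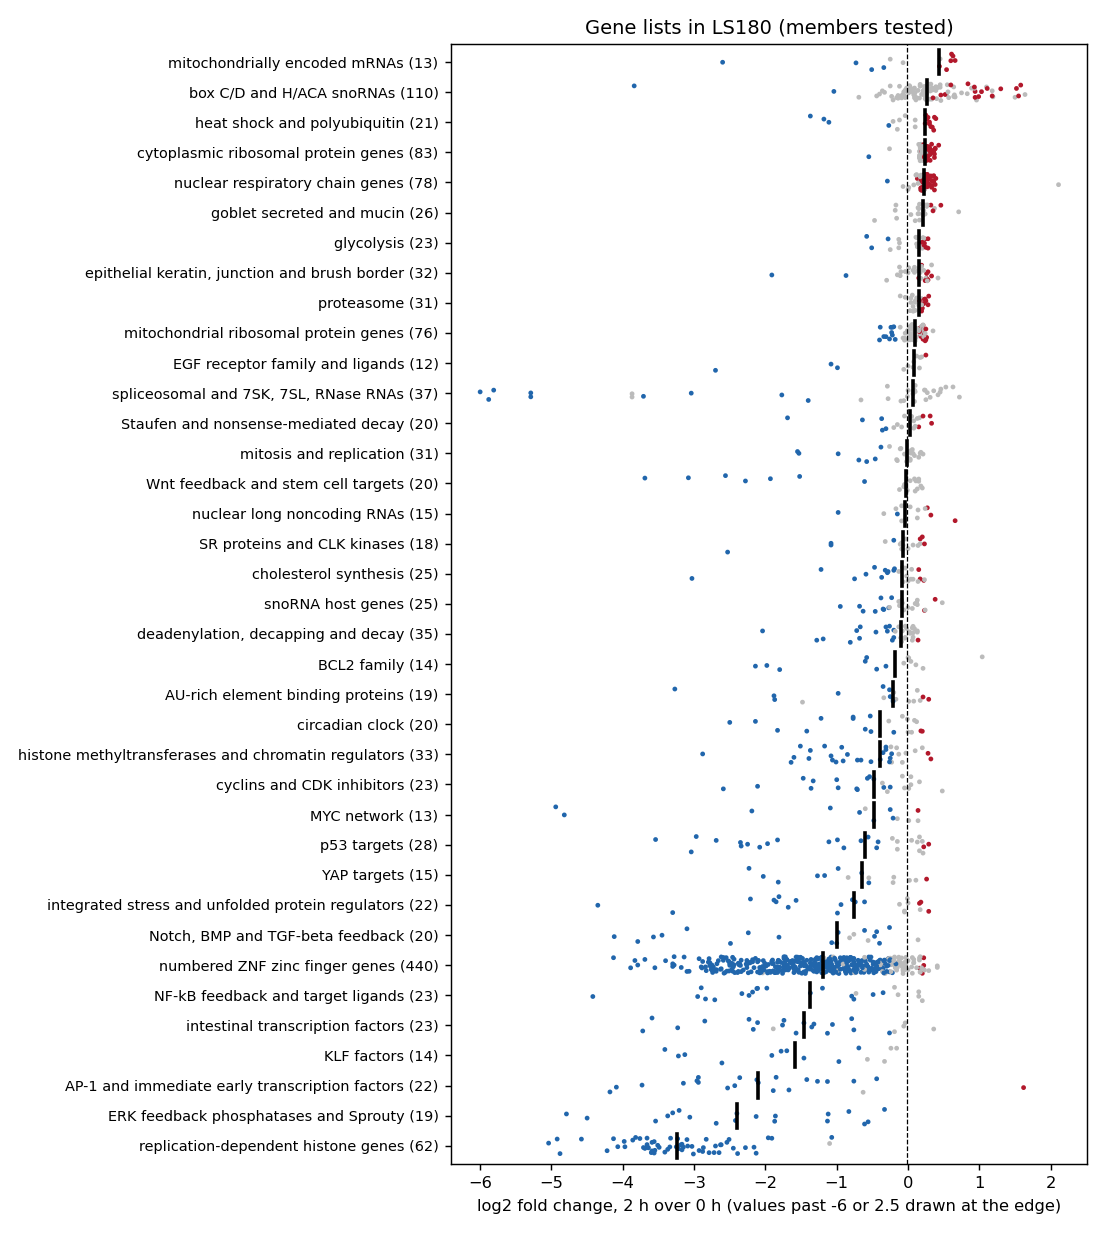
Log2 fold change at 2 h over 0 h of every tested member of 37 gene lists (dots; blue called lower, red called higher, grey not called), with the list median as a black bar and the median of all genes as a dashed line; the number of members tested is in brackets. Histone, ERK feedback, immediate early and KLF genes lie lowest, and ribosomal protein and respiratory chain genes sit in a tight band just right of the line.

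Genes of cell cycle arrest and survival fell in part. Of 28 tested p53 targets 17 fell, 8 of them at least 4-fold, and 2 rose (median -0.61). BTG2, an antiproliferative cofactor of deadenylation, was at 2.74, 2.24 and 2.74 CPM at 2 h, against 31.0, 28.8 and 30.1 CPM at 0 h, 11.6-fold lower. The stress cytokine gene GDF15 was 8.24-fold, the kinase gene PLK2 7.84-fold and SESN2, an mTORC1 inhibitor, 6.47-fold lower. SPATA18 and POLK differed by 0.29 and 0.22, and by 0.06 and -0.02 with ribosomal protein scaling. Higher p53 targets were 0 without the 0 h library 2 or the 2 h library 1, 1 without the 0 h library 1 or the 2 h library 3, and 6 without the 2 h library 2. In the BCL2 family 7 of 14 tested members fell and 0 rose (median -0.19), with both pro-survival and pro-death genes among the falls. MCL1, a short-lived survival factor, was at 55.2, 56.5 and 58.5 CPM at 2 h, against 195, 197 and 199 CPM at 0 h (3.47-fold). BCL2L11, which encodes the pro-death protein BIM, was 4.41-fold lower, BAK1 1.49-fold and BCL2L1 1.52-fold. In this family 1 member was higher without the 0 h library 3 or the 2 h library 2.

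Among cyclins, CDK inhibitors and their partners 14 of 23 tested members fell and 0 rose (median -0.48). CDKN1B, which encodes the CDK inhibitor p27, was at 10.6, 12 and 10.7 CPM at 2 h, against 68.6, 64.8 and 66.9 CPM at 0 h, 6.02-fold lower. The transcriptional cyclins CCNL1 and CCNT2 were 4.32-fold and 2.78-fold lower, and CCNF, a G2 cyclin, 2.57-fold. Mitosis and replication genes stayed close to the median of all genes (median -0.01), with 7 of 31 lower and 0 higher. Their 22.6% lower lies near the 23.9% of all genes. E2F7 and E2F8, repressors of the E2F programme, were 2.93-fold and 2.88-fold lower, the mitotic kinase gene AURKA 1.97-fold and the licensing factor gene CDT1 1.61-fold. With ribosomal protein scaling 13 of the 31 were lower. Higher members were 1 without the 0 h library 2 or the 2 h library 1, and 4 without the 2 h library 2, which also left 2 cyclin list members higher.

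Circadian clock genes had 11 of 20 tested members lower and 2 higher (median -0.39). The repressor NFIL3 was 5.67-fold lower, with 2.45, 2.48 and 2.67 CPM at 2 h, against 13.7, 14.6 and 14.9 CPM at 0 h, and TEF, RORA and CRY2 were 4.41-, 3.55- and 2.33-fold lower. CRY1, the paralog of CRY2, and ARNTL2 differed by 0.20 and 0.18, and by -0.03 and -0.05 with ribosomal protein scaling; 1 clock gene was higher without the 0 h library 1 or 2 or the 2 h library 1 or 3. In the integrated stress and unfolded protein list 13 of 22 fell and 3 rose (median -0.76). DDIT4 was at 5.34, 4.50 and 4.86 CPM at 2 h, against 93.6, 107 and 99.4 CPM at 0 h. CHAC1, a glutathione-degrading enzyme gene of the ATF4 response, was 9.85-fold lower, the co-chaperone gene DNAJB9 3.67-fold and the transcription factor CEBPB 3.62-fold. The chaperone HSP90B1 was at 1381, 1367 and 1415 CPM at 2 h and 1131, 1097 and 1175 CPM at 0 h (log2 fold change 0.29, and 0.06 with ribosomal protein scaling), and SEL1L differed by 0.18, and by -0.05 with that scaling.

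**Figure D3:**
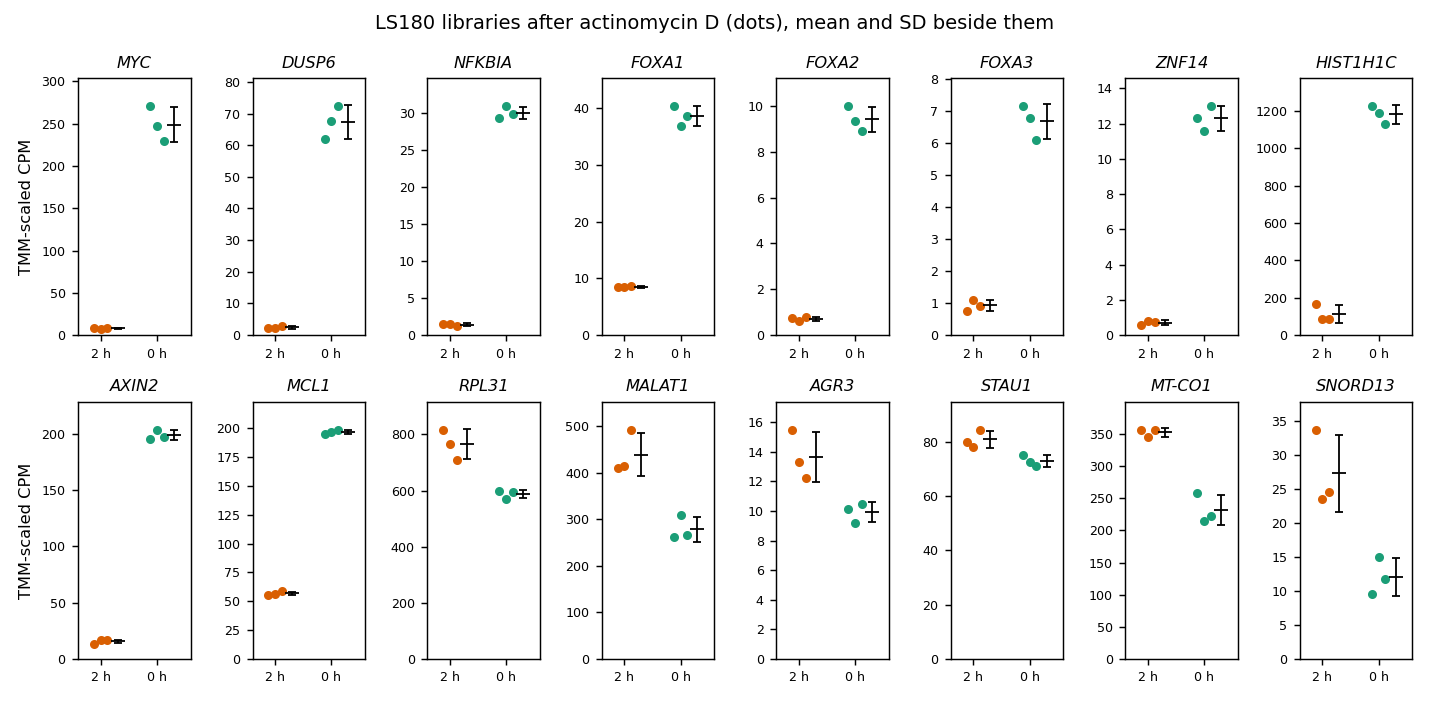
TMM-scaled CPM of 16 genes in each of the 3 LS180 libraries at 2 h (left, orange) and at 0 h (right, green), with mean and SD as a bar beside the dots; each axis starts at 0. MYC, DUSP6, NFKBIA, the FOXA genes, ZNF14, HIST1H1C, AXIN2 and MCL1 show the 2 h libraries far below the 0 h libraries, and the last 6 panels show them somewhat above.

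Zinc finger genes fell widely. Of 440 tested ZNF genes with a number as their name, most of which encode DNA-binding repressors, 367 (83.4%) fell, 259 of them at least 2-fold and 91 (20.7%) at least 4-fold, and 4 rose. The median log2 fold change was -1.19, and -1.42 to -1.07 over the alternatives. ZNF14 was at 0.561, 0.822 and 0.733 CPM at 2 h, against 12.3, 11.6 and 13 CPM at 0 h. ZNF57 was 14.9-fold, ZNF627 13.8-fold and ZNF503 11.7-fold lower. ZNF638 and ZNF664 were higher by 0.22 each, ZNF638 with no call without the 0 h library 2, and both turned to -0.01 with ribosomal protein scaling. Without the 2 h library 2 the higher members were 9, without the 0 h library 2 they were 2.

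Chromatin regulator genes fell widely but by less. Of 33 tested members 23 fell, 10 of them at least 2-fold and 1 at least 4-fold, and 2 rose (median -0.39). ARID5B was the 1 past 4-fold, with 5.85, 6.72 and 7.28 CPM at 2 h, against 48.6, 49.2 and 48.8 CPM at 0 h (7.38-fold). PCGF1, a Polycomb subunit gene, was 3.04-fold, ARID4B 2.85-fold and KMT2D, which encodes an H3K4 methyltransferase, 2.58-fold lower. The Polycomb gene BMI1 and the deacetylase gene HDAC1 were higher by 0.32 and 0.28, and by 0.09 and 0.05 with ribosomal protein scaling. Without the 2 h library 2, 4 members were higher.

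By their median the replication-dependent histone genes fell most of the 37 lists. Of 62 tested 61 fell, 58 (93.5%) of them at least 4-fold, and the median log2 fold change was -3.24. HIST1H1D, a linker histone gene, was at 7.04, 2.93 and 2.61 CPM at 2 h, against 128, 125 and 130 CPM at 0 h, 30.4-fold lower (edgeR adjusted p = 2.08e-08). HIST1H2BJ was at 8.89, 4.28 and 4.04 CPM at 2 h, against 165, 177 and 166 CPM at 0 h, 29.4-fold lower. The 2 h library 1 stood above the other two at 2 h for both genes. This held for the histone counts as a whole, which took 0.266%, 0.146% and 0.15% of the 2 h libraries, against 1.6%, 1.59% and 1.51% of the 0 h libraries; without it 60 of the members were called lower. Per length, HIST1H4J, HIST1H1C and HIST2H2AA4 had the highest TPM at 0 h among genes at least 4-fold lower that matched the annotation. HIST1H1C averaged 80.3 ± 34.2 TPM at 2 h and 868 ± 94.0 TPM at 0 h (SD, n = 3 each). Histone copies of near-identical sequence share reads, and the level of each copy is uncertain.

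The mRNAs of the decay machinery itself changed in part. Among AU-rich element binding and related proteins 9 of 19 tested members fell and 2 rose (median -0.21), and all 3 genes of the destabilising ZFP36 family fell. ZFP36L2 was at 3.38, 4.09 and 4.37 CPM at 2 h, against 39.2, 40.1 and 34.8 CPM at 0 h, 9.62-fold lower, ZFP36L1 was 3.66-fold lower, and ZFP36 itself, chosen after its value was seen, fell by 1.88 on the log2 scale. The m6A reader gene YTHDF2 was 1.97-fold and the stem-loop binder gene RC3H1 1.27-fold lower. The stabilising factor ELAVL1 did not pass the test, at 87.3, 87.4 and 93.4 CPM at 2 h and 85.1, 86.6 and 82.6 CPM at 0 h, and was also chosen after its values were seen. AUH and TIA1 differed by 0.29 and 0.21, and by 0.06 and -0.03 with ribosomal protein scaling. Without the 2 h library 2, 5 members were lower and 4 higher, and without any 1 of the other 5 libraries TIA1 lost its call, which left 1 higher.

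Of 35 tested genes of deadenylation, decapping and decay 14 fell, 3 of them at least 2-fold, and 1 rose (median -0.10); without the 2 h library 2, 9 fell. The 3 were TOB1, BTG1 and TOB2, which encode adaptors that recruit the CCR4-NOT deadenylase. TOB1 was at 6.92, 7.10 and 7.54 CPM at 2 h, against 28.6, 30.6 and 29.2 CPM at 0 h, 4.10-fold lower, BTG1 was 2.43-fold and TOB2 2.29-fold lower, and CNOT4 was 1.75-fold lower. The nuclear exonuclease gene XRN2 differed by 0.14, and by -0.09 with ribosomal protein scaling, and its call was lost without the 0 h library 1 or 2 or the 2 h library 1 or 3, while 7 members were higher without the 2 h library 2. In the Staufen and nonsense-mediated decay list 5 of 20 fell and 4 rose (median 0.03). The 25.0% lower lies near the 23.9% of all genes. Without the 2 h library 2 the counts were 2 and 9, and 2 rose without the 0 h library 2. SMG8, a regulator of the SMG1 kinase, was the 1 member past 2-fold, at 10.5, 9.97 and 10.8 CPM at 2 h, against 34.7, 33.6 and 32.8 CPM at 0 h (3.23-fold). PNRC2 was 1.56-fold, SMG1 1.29-fold and SMG6 1.28-fold lower, both without a call when the 2 h library 2 was left out, SMG6 also without the 2 h library 1, and UPF3B and NCBP2 were higher by 0.33 and 0.31 (0.10 and 0.07 with ribosomal protein scaling).

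Splicing regulators of the SR and CLK families had 4 of 18 tested members lower and 3 higher (median -0.07), shares of 22.2% and 16.7% that lie near the 23.9% and 13.5% of all genes. The 4 were the CLK kinase genes, which phosphorylate SR proteins. CLK1 was at 5.07, 5.06 and 4.59 CPM at 2 h, against 25.3, 28.9 and 30.7 CPM at 0 h, 5.77-fold lower, CLK2 and CLK4 were each 2.11-fold and CLK3 1.15-fold lower, with no call for CLK3 without the 0 h library 2 or the 2 h library 1 or 2. TRA2A and SRSF11 differed by 0.23 and 0.20, and by -0.01 and -0.03 with ribosomal protein scaling. TRA2A lost its call without the 0 h library 1 or 3 or the 2 h library 1. Higher members were 1 without the 0 h library 3 and 5 without the 2 h library 2.

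Genes of the differentiated and secretory cell stayed near or slightly above the median of all genes. None of 26 tested goblet and mucin genes fell and 3 rose, and the 11.5% higher lies near the 13.5% of all genes. The list median was 0.21 on the log2 scale, and -0.02 with ribosomal protein scaling. It lay 0.13 to 0.34 above that of all genes over the alternatives. The risers were AGR3, at 15.5, 13.3 and 12.2 CPM at 2 h and 10.1, 9.18 and 10.5 CPM at 0 h (log2 fold change 0.46, edgeR adjusted p = 0.0142), TFF1 (0.35) and SPINK4 (0.32). Without the 0 h library 2 none was called, without the 0 h library 3 1 was, and without the 2 h library 2 7 were. AGR2, the disulfide isomerase of mucin folding, was at 1234, 1085 and 1043 CPM at 2 h and 995, 884 and 960 CPM at 0 h (log2 fold change 0.24, edgeR adjusted p = 0.144; chosen after its values were seen). Of 32 epithelial keratin, junction and brush border genes 2 fell and 8 rose (median 0.16), and 14 rose without the 2 h library 2, while CEACAM6 lost its call without the 0 h library 1 or 2 or the 2 h library 3. CLDN4, a tight junction gene, was the exception in size, with 48.4, 49.9 and 46.1 CPM at 2 h, against 180, 188 and 172 CPM at 0 h (3.75-fold lower), and CTNND1, which encodes p120 catenin, was 1.83-fold lower. CEACAM6, CTNNA1, CLDN2 and EPCAM were higher by 0.26 to 0.33, and by 0.03 to 0.10 with ribosomal protein scaling.

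Genes of the ribosome and the respiratory chain sat slightly above the median of all genes. Of 83 tested ribosomal protein genes of the cytoplasm 53 rose and 1 fell (median 0.24, which was 0.23 to 0.37 above all genes over the alternatives and 0.00 with scaling to these genes, as that scaling sets). RPL31 was at 817, 766 and 710 CPM at 2 h, against 597, 571 and 596 CPM at 0 h, 1.3-fold higher (edgeR adjusted p = 0.00163), and RPS27L and RPS27 were 1.35- and 1.29-fold higher. RPL39L, a paralog with a testis-enriched role that was chosen after its value was seen, was the 1 that fell (-0.55), a call lost without the 0 h library 2 or 3 or the 2 h library 2 or 3. Their share of all counts was 9.42%, 9.06% and 8.92% at 2 h and 8.15%, 7.86% and 7.99% at 0 h. Without the 2 h library 1, 30 members rose, without the 0 h library 2, 34 did. Of 78 nuclear genes of the respiratory chain 56 rose and 1, NDUFV3, fell (median 0.22, and -0.01 with ribosomal protein scaling), led by NDUFB3, COX6C, NDUFB1 and NDUFA1 at 1.31-, 1.3-, 1.29- and 1.29-fold. Leaving out the 2 h library 1 and the 0 h libraries 1, 2 and 3 in turn, 24, 33, 30 and 36 of them rose.

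Mitochondrial ribosomal protein genes were more mixed, with 17 of 76 higher and 11 lower (median 0.10, and -0.14 with ribosomal protein scaling). MRPL50 and MRPL15 were 1.32- and 1.31-fold lower, with 71.8, 67.4 and 65.9 CPM of MRPL50 at 2 h, against 92.3, 84.2 and 94.8 CPM at 0 h, while MRPL52, MRPS21, MRPL42 and MRPL24 were 1.18- to 1.20-fold higher. Higher members were 4 without the 2 h library 1, 6 and 11 without the 0 h libraries 2 and 1, and 41 without the 2 h library 2, which left 3 lower. Of 31 proteasome genes 10 rose and 0 fell (median 0.15), PSMA4 by 1.23-fold, PSMA7 by 1.19-fold and PSMB6 by 1.18-fold. PSMA7 lost its call without any 0 h library or the 2 h library 1. Of the list 5 rose without the 2 h library 1 or the 0 h library 1 or 2, 6 without the 0 h library 3 and 22 without the 2 h library 2. With ribosomal protein scaling none of the respiratory chain, mitochondrial ribosomal or proteasome genes was called higher.

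Metabolic lists held a few lower regulators among enzymes that changed little. In glycolysis 3 of 23 tested members fell and 7 rose (median 0.16), and 4 rose without the 0 h library 3 or the 2 h library 3, and 14 without the 2 h library 2. The falls included PFKFB3 and PFKFB4, bifunctional enzymes that set the level of a phosphofructokinase activator, which were 1.5- and 1.42-fold lower, while PFKM, GPI and LDHB were 1.19- to 1.22-fold higher and PFKL 1.18-fold. With ribosomal protein scaling 0 members were called higher and 5 lower, at a median of -0.07, and with RLE size factors 15 were higher. In the cholesterol list 11 of 25 fell and 3 rose (median -0.08), and without the 2 h library 2 the counts were 6 and 6. INSIG1, the sterol sensor partner, was 2.32-fold lower, with 157, 157 and 158 CPM at 2 h, against 337, 365 and 393 CPM at 0 h (edgeR adjusted p = 9.36e-12). MVK was 1.68-fold lower, and PMVK and LSS differed by 0.22 and 0.17, and by -0.02 and -0.06 with ribosomal protein scaling. PMVK lost its call without the 0 h library 3, and LSS without that library or the 2 h library 1 or 3. Higher members of this list were 0 without the 0 h library 3 and 1 without the 2 h library 1.

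Heat shock and polyubiquitin genes split, with 11 of 21 tested members higher and 4 lower (median 0.24, and 0.01 with ribosomal protein scaling, under which none was called higher). HSP90AA1, a cytosolic chaperone, was at 1707, 1712 and 1817 CPM at 2 h, against 1356, 1406 and 1234 CPM at 0 h (1.31-fold), and HSPH1, DNAJB4 and HSPB1 were 1.29-, 1.29- and 1.26-fold higher, HSPB1 with no call without the 0 h library 2 or 3 or the 2 h library 1. The transcription factor HSF2 was 2.58-fold and the co-chaperone DNAJB1 2.27-fold lower, with 68.4, 65.1 and 62.4 CPM of DNAJB1 at 2 h, against 152, 153 and 140 CPM at 0 h.

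Mitochondrial transcripts stood at the upper end of the lists. Of the 13 mitochondrially encoded mRNAs 6 rose and 4 fell (median 0.44), and with ribosomal protein scaling 2 were higher and 4 lower (median 0.20). MT-CO1, an oxidase subunit, was at 357, 345 and 356 CPM at 2 h, against 259, 214 and 223 CPM at 0 h, 1.52-fold higher, and MT-ND4, MT-CYB and MT-ATP6 were 1.58-, 1.54- and 1.53-fold higher. The 2 mitochondrial ribosomal RNAs were higher too, MT-RNR1 by 1.91-fold and MT-RNR2 by 1.70-fold, with 388, 466 and 516 CPM of MT-RNR2 at 2 h, against 273, 270 and 265 CPM at 0 h. MT-ND2 and MT-ND3 were 1.43- and 1.27-fold lower, and without the 2 h library 2 neither was called and 2 of the mRNAs fell. MT-ND2 also lost its call without the 0 h library 1, and MT-ND3 without the 0 h library 3 or the 2 h library 1. MT-ND6, chosen after its values were seen, stood at 0.612, 0.318 and 0.375 CPM at 2 h, against 2.88, 2.39 and 2.71 CPM at 0 h, and is encoded on the other strand from the rest; the strand setting of the counting is not given in the sources used here.

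Of 110 tested snoRNA and scaRNA genes 16 rose and 2 fell (median 0.26), and the 14.5% higher lies near the 13.5% of all genes. With no filter 52 were higher, and with ribosomal protein scaling 7. SNORD13, a box C/D snoRNA, was at 33.8, 23.6 and 24.6 CPM at 2 h, against 9.52, 15 and 11.7 CPM at 0 h, 2.27-fold higher (edgeR adjusted p = 0.000359). SNORA8 was 2.16-fold, SCARNA9 1.98-fold and SCARNA7 1.79-fold higher. Like SNORD13 they come from the ranking of rises, which took only genes whose libraries did not overlap. SNORD3B-1, a U3 copy, fell by 1.04 on the log2 scale, with 2.82, 12.8 and 9.99 CPM at 2 h, against 19.8, 15.4 and 17.1 CPM at 0 h, shares reads with other U3 copies, and lost its call without the 0 h library 1. Higher members were 7, 8 and 10 without the 0 h library 1, the 0 h library 3 and the 2 h library 1. The host genes, from whose introns many snoRNAs are cut, had 9 of 25 lower and 2 higher (median -0.09), with SNHG15 1.93-fold and SNHG12 1.54-fold lower and SNHG6 1.3-fold higher. With the effective length of each library as an offset 2 of the host genes fell, and without the 2 h library 2, 5 did and 5 rose, while 1 rose without the 0 h library 3.

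Among 37 small nuclear, 7SK, 7SL and related RNAs 9 fell and 0 rose (median 0.07). The 24.3% lower lies near the 23.9% of all genes. The 9 that fell all averaged under 5 CPM. They were RNU12, RNU6ATAC and 7 variant U1 genes (RNVU1), chosen after their values were seen, and the variant copies share reads. RN7SL1, the RNA of the signal recognition particle, was at 54932, 62340 and 48294 CPM at 2 h and 46038, 56519 and 53364 CPM at 0 h, and the groups overlapped (edgeR adjusted p = 0.706). Of 15 long noncoding RNAs 3 rose and 2 fell (median -0.04). MALAT1, a nuclear speckle RNA, was at 411, 414 and 493 CPM at 2 h, against 261, 309 and 266 CPM at 0 h (1.58-fold, edgeR adjusted p = 0.000412), the imprinted RNA H19 was 1.25-fold and the telomerase RNA TERC 1.20-fold higher. With ribosomal protein scaling the log2 fold changes were 0.43 for MALAT1 (edgeR adjusted p = 0.0804), 0.09 for H19 and 0.03 for TERC, and 0 members were called higher. OIP5-AS1 differed by -0.15, and by 0.19 with an effective length offset. TERC lost its call without the 0 h library 1 or 3 or the 2 h library 1, and OIP5-AS1 without the 0 h library 3 or any 2 h library, each of which left 1 lower. By annotated type, 25.9% of 13811 protein-coding genes were lower and 15.9% higher, as were 15.2% and 3.93% of 1883 long noncoding genes.

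The share of genes with an AU-rich motif differed between the classes of change, which is given as a description. The nonamer TTATTTATT, the core of classical AU-rich elements, was searched on the transcript strand of the 3′ untranslated region of 13653 tested genes, taken from the GENCODE 29 transcript with the longest coding part. It contains the pentamer ATTTA, so both were not counted as independent. Copies that overlap were each counted. Sites are shown for the genes with the largest falls, and then the largest rises, among those that hold the nonamer. The first nonamer of the region is in capitals with 10 bases either side, 5′ to 3′ on the transcript strand, with GRCh38 positions.
NUAK2, chr1:205302895-205302923, minus strand: atttttatttTTATTTATTtatttatttt
RGS16, chr1:182598868-182598896, minus strand: ggtgctgttgTTATTTATTattgtaattt
KCNJ2, chr17:70178973-70179001, plus strand: tgttcttctgTTATTTATTtcagcatgga
ITPRIP, chr10:104312438-104312466, minus strand: gcaaatttccTTATTTATTtatggcccat
CHAC1, chr15:40955959-40955987, plus strand: acttgaaactTTATTTATTgcaccatgtt
ZBTB34, chr9:126884964-126884992, plus strand: ctggtcagggTTATTTATTaaattttata
NEGR1, chr1:71405461-71405489, minus strand: tttaactttaTTATTTATTtgcttttaag
CBWD2, chr2:113495804-113495832, plus strand: tttcaagcatTTATTTATTactttagtta
CARD8, chr19:48208457-48208485, minus strand: aagatgtttaTTATTTATTtggctttctg
The first 6 were 9.84- to 13.5-fold lower, and the last 3, which hold the same letters, 1.26- to 1.32-fold higher. NUAK2, a stress-activated kinase gene, has 3 overlapping nonamers in a region of 1391 bases, all within the stretch shown. It was at 0.952, 0.635 and 0.619 CPM at 2 h, against 9.92, 9.86 and 10.1 CPM at 0 h. CARD8, an inflammasome gene with 1 nonamer in 3606 bases, was at 7.58, 7.94 and 7.85 CPM at 2 h, against 6.06, 6.45 and 6.07 CPM at 0 h. The rises of NEGR1, CBWD2 and CARD8 were 0.17, 0.13 and 0.10 on the log2 scale with ribosomal protein scaling.

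The nonamer was present in 17.9% of the 429 genes at least 4-fold lower, 13.3% of the 887 genes 2- to 4-fold lower, 11.3% of the 2231 lower by less, 6.65% of the 7923 not called and 4.67% of the 2183 higher, against 7.88% of all. Regions with the nonamer are longer: the median length was 3383 bases for genes with 2 or more nonamers, 2556 with 1 and 865 with none. Among regions of 1000 to 1999 bases, of which 7.55% hold the nonamer, the shares in the same order were 14.6%, 14.2%, 8.5%, 6.94% and 3.10%. Without the numbered ZNF genes the share was 20.6% in the genes at least 4-fold lower. Seen the other way, 47.5% of the 238 genes with 2 or more nonamers, 39.9% of the 838 with 1 and 24.6% of the 12577 with none were called lower, and their median log2 fold changes were -0.28, -0.13 and 0.00. Gene structure moved with the same classes. Genes with 2 exons or fewer in that transcript made up 29.1% of the genes at least 4-fold lower, 19.6% and 9.95% of the smaller falls, 5.14% of those not called and 1.37% of those higher, against 7.02% of all. The median level at 0 h was 10.8 CPM in the genes at least 4-fold lower and 64.9 CPM in the higher ones. The part of length, exon number and level in the motif's shares was tested only as far as the length class given, and no p-value is given for these counts.

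**Figure D4:**
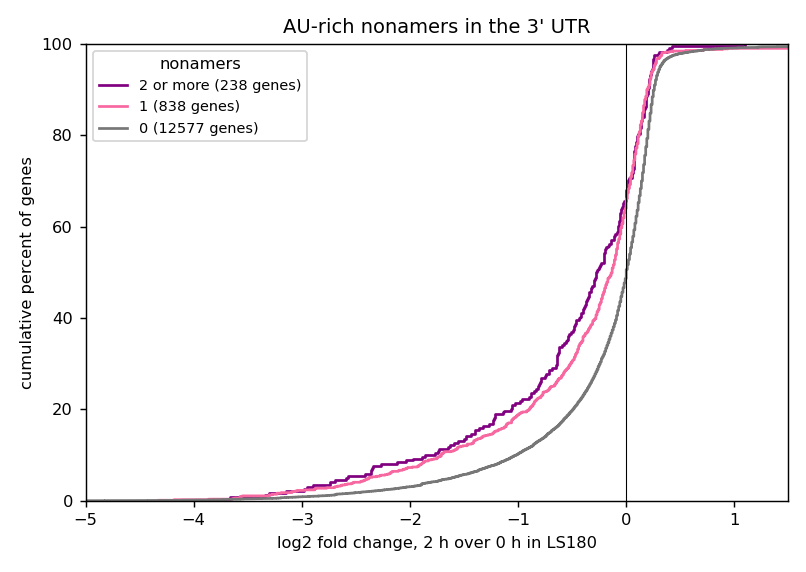
Cumulative percent of genes against the log2 fold change at 2 h over 0 h in LS180, for genes with 2 or more (238), 1 (838) and 0 (12577) AU-rich nonamers in the 3′ untranslated region. The curves of genes with nonamers lie to the left of the grey curve, with medians of -0.28, -0.13 and 0.00.

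A separate readout of the same genes came from the STAU1 knockdown in LS180 cells. Of 13416 genes tested in both experiments 23.7% were higher and 23.6% lower in siSTAU1 than in siCTRL libraries. Among the 399 at least 4-fold lower at 2 h, 16.3% were higher and 22.8% lower with the knockdown (median log2 fold change -0.10). The 880 genes 2- to 4-fold lower at 2 h had 10.7% higher and 26.6% lower, and the 2385 lower by less had 14% and 32.2%. Genes not called at 2 h had 24.7% higher and 20.9% lower (7513 genes, median 0.03), and the 2239 genes higher at 2 h had 37.2% and 22.1% (median 0.06). These shares are a description, and differences between classes were not tested. The classes also differed in level. Among genes with a 3′ untranslated region, the median at 0 h was 64.9 CPM in the higher class. It was 13.6 CPM in genes not called and 10.8 CPM in those at least 4-fold lower. The part of level in these shares was not tested. Of the genes at least 4-fold lower, 65 were higher and 91 lower with the knockdown; these counts were 41 and 56 without siCTRL library 1 and 40 and 52 without siCTRL library 2. The knockdown libraries were of selected mRNA on another genome build, so levels are not compared.

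The change at 2 h was also set against that in HCT116, with a test of the difference between the lines for each gene. It was lower in LS180 than in HCT116 for 905 genes (5.24%) and higher for 68 (0.394%). With ribosomal protein scaling these counts were 343 and 30. BTG2 was at 2.74, 2.24 and 2.74 CPM at 2 h, against 31.0, 28.8 and 30.1 CPM at 0 h in LS180, and at 11.4, 9.72 and 9.70 CPM at 2 h, against 41.4, 28.6 and 27.7 CPM at 0 h in HCT116. Its log2 fold change was -3.54 in LS180 and -1.67 in HCT116, a difference of -1.87 (SE 0.215; edgeR adjusted p = 2.15e-05). CDKN1A, which encodes the CDK inhibitor p21, stood at 38.4, 37.9 and 37.2 CPM at 2 h, against 157, 161 and 161 CPM at 0 h in LS180, and at 186, 149 and 149 CPM at 2 h, against 248, 185 and 198 CPM at 0 h in HCT116. The p21 mRNA changed by -2.08 in LS180 and -0.38 in HCT116, a difference of -1.70 (SE 0.189; edgeR adjusted p = 1.71e-05). FRAT2, TNFSF9 and ZNF440 differed by -1.74, -1.74 and -1.73, and FOXA3 by -1.61 (SE 0.273; edgeR adjusted p = 0.000943), with -2.85 in LS180 and -1.24 in HCT116. FOXA3 was low in HCT116, with means of 1.57 CPM at 2 h and 3.70 at 0 h. FOXA1 changed by -2.17 in LS180 and -2.23 in HCT116, a difference of 0.05 (SE 0.259) that did not pass the test. In HCT116 FOXA1 was at only 0.461, 0.700 and 0.503 CPM at 2 h, against 3.17, 2.39 and 2.19 CPM at 0 h. An equal fall of FOXA1 in both lines is therefore not shown. FOXA2 was at 0 in the 3 HCT116 libraries at 2 h and at most 0.0898 CPM at 0 h, so it is not compared.

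In the other direction RGMB, a BMP co-receptor gene, was at 71.6, 57.4 and 62.2 CPM at 2 h and 79.7, 63.9 and 64.7 CPM at 0 h in LS180, and at 3.46, 4.22 and 3.76 CPM at 2 h and 17.8, 19.5 and 19.6 CPM at 0 h in HCT116. Its change was -0.12 in LS180 and -2.31 in HCT116, a difference of 2.19 (SE 0.279; edgeR adjusted p = 5.73e-05). DKK1, a secreted Wnt inhibitor, differed by 1.53, and the histone genes HIST2H3D, HIST2H2AC and HIST1H4J by 1.42, 1.37 and 1.36. The call of HIST2H3D was lost with ribosomal protein scaling and without the LS180 2 h library 1 (edgeR adjusted p = 0.0554 and 0.0507), and that of HIST1H4J under 7 alternatives, among them each of 5 left-out libraries, HCT116 0 h 2 and 3, LS180 0 h 1 and 3 and LS180 2 h 1, at adjusted p = 0.0522 to 0.0890. Of the lists, the numbered ZNF genes held 124 of 440 members lower in LS180 and 3 higher, with medians of -1.19 in LS180 and -0.71 in HCT116. The p53 targets had 8 of 28, the AP-1 and immediate early genes 9 of 22 and the ERK feedback genes 7 of 19 members lower in LS180, with 0, 1 and 1 higher. Replication-dependent histone genes went the other way, with 15 of 62 higher and 0 lower in LS180 and medians of -3.24 in LS180 and -3.93 in HCT116. The number of calls moved with single libraries: it was 384 lower and 116 higher without the LS180 2 h library 2, and 365 lower without either HCT116 2 h library 2 or 3, while 44 were higher without the LS180 0 h library 3 and 45 without the LS180 2 h library 1.

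**Figure D5:**
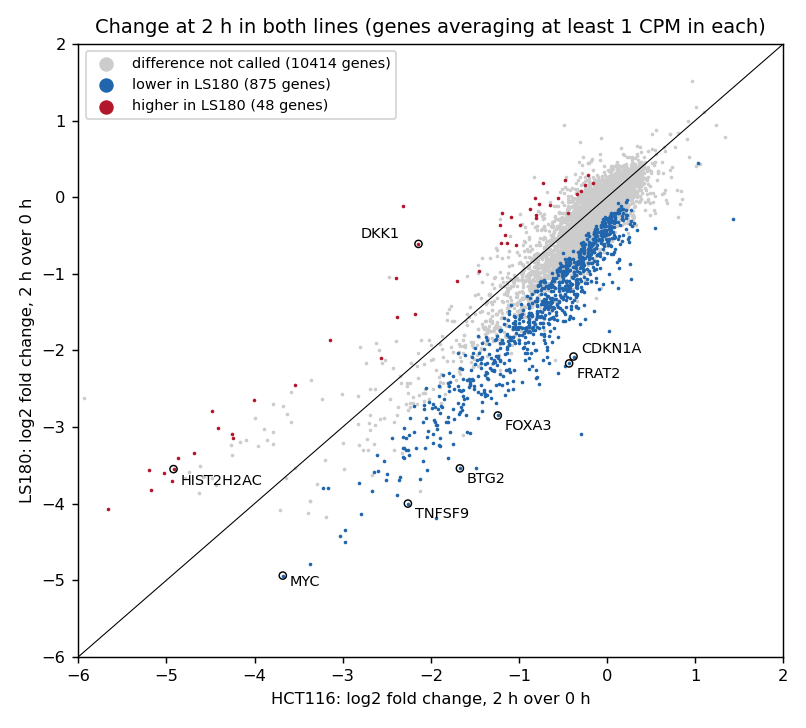
Log2 fold change at 2 h over 0 h in LS180 (vertical axis) against that in HCT116 (horizontal axis), 1 dot per gene that averages at least 1 CPM in each line, with genes whose difference between the lines was called lower in LS180 in blue (875 of the 905) and higher in LS180 in red (48 of the 68). Blue dots such as BTG2, TNFSF9 and CDKN1A lie below the line of equality, and red dots such as DKK1 and HIST2H2AC lie above it.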

How the data were processed

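Total RNA of the LS180 and HCT116 actinomycin D libraries and poly(A)-selected RNA of the siRNA libraries were prepared with Illumina stranded kits, per the labels' protocols. Per the submitters' processing notes the tools were cutadapt, STAR 2.7 and RSEM 1.3.1, with hg19 for actinomycin D and hg38 for siRNA libraries; for annotation release and strand setting, neither was given in the sources used here. The authors deposited expected counts, TPM and effective lengths per gene. Expected counts were rounded and tested with edgeR 4.0.16 in R 4.3.3 (quasi-likelihood, TMM, filterByExpr by group, Benjamini-Hochberg threshold 0.05); 18 actinomycin D libraries in 6 groups shared 1 fit of 17256 genes with 12 residual degrees of freedom, so the spread is pooled over both lines and all times. The siRNA fit held 4 libraries and 14073 genes. TPM, as the authors deposited it, serves only for levels per length. The line difference is the interaction of line and time.

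Gene types, coordinates and 3′ untranslated regions came from GENCODE 29 (GRCh38), matched on the Ensembl ID without its version for 52338 of 57820 genes (90.5%), and are not the authors' build. Members and lists were chosen with earlier results of these data known. Named genes were STAU1, STAU2 and the FOXA genes; the 12 largest falls and 10 largest rises among called genes averaging at least 5 CPM whose groups did not overlap, without pseudogenes, unnamed clones and, in these rankings and that of the line difference, genes not matched to GENCODE 29, whose type is not known; per list, up to 4 called members with the largest change in the direction most called members took and up to 2 the other way; for the line difference, 5 in each direction; and 3 by TPM. The TPM ranks also left out pseudogenes, unnamed clones and genes not matched to GENCODE 29. Of rises and TPM ranks only those bearing on a list are printed. Alternatives were RLE size factors, DESeq2 1.42.0, total library size, ribosomal protein scaling, other filters on low counts, an effective length offset, no short noncoding RNA genes, only the groups compared, a replicate block, and leaving out each library. No 2 libraries of a group held the same values: a chi-square of their counts per degree of freedom was 9.26 to 21.0. Same-numbered HCT116 libraries at 2 h and 0 h deviated together (r = 0.73, 0.31 and 0.46 across genes). So did the 2 h library 3 with the 0 h library 2 (r = 0.56) and the 2 h library 2 with the 0 h library 3 (0.43). The pairs of library 1 with a different number had r = -0.65 to -0.48. A pairing by number is therefore not shown in HCT116. Same-numbered LS180 libraries did not deviate together in every case. A few genes picked by this rule are not reported here.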

Additional observations from a re-analysis of the deposited data

Results flagged for a closer look

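The results here were picked because the change at 2 h differed between LS180 and HCT116 in a test of the difference itself (the interaction term of edgeR's quasi-likelihood fit, Benjamini-Hochberg adjusted), which called 905 genes lower and 68 higher in LS180. Values are the LS180 change minus the HCT116 change on the log2 scale. The change was lower in LS180 for BTG2 (-1.87), FRAT2 (-1.74), TNFSF9 (-1.74), ZNF440 (-1.73), CDKN1A (-1.70) and FOXA3 (-1.61). It was higher in LS180 for RGMB (2.19), DKK1 (1.53), HIST2H3D (1.42), HIST2H2AC (1.37) and HIST1H4J (1.36). The line differences of HIST2H3D and HIST1H4J were not called without the LS180 2 h library 1 (edgeR adjusted p = 0.0507 and 0.0890), in which histone genes took 0.266% of the counts, against 0.146% and 0.15% in the other 2 h libraries. With 3 libraries in every group, no check for a single library far from the others was run.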

How the results depend on the processing

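Strong falls depended little on the processing: of 87 named genes at least 2-fold lower at 2 h, 86 kept direction and call under every alternative run, the exception being SNORD3B-1, and the 546 genes at least 4-fold lower numbered 408 to 687. Small rises depended on the scaling. The 2329 higher genes numbered 4943 with a filter of 1 CPM, 4927 with DESeq2, 4863 with RLE, 4921 with no filter, 3893 with only the groups compared, 55 with ribosomal protein scaling, 1095 with total library size, and 1478 to 4309 on leaving out 1 library. The 65 at least 2-fold higher were 31 with 1 CPM, 103 with RLE, 172 with no filter and 30 with ribosomal protein scaling. With ribosomal protein scaling the direction turned for STAU1 (-0.08), MAX (-0.09), POLK (-0.02), CRY1 (-0.03), ARNTL2 (-0.05), SEL1L (-0.05), TIA1 (-0.03), XRN2 (-0.09), TRA2A (-0.01), SRSF11 (-0.03), PMVK (-0.02), LSS (-0.06), ZNF638 (-0.01), ZNF664 (-0.01) and RCC1 (-0.0). With an effective length offset it turned for OIP5-AS1 (0.19), SNHG12 (0.11), SNHG7 (0.0) and SNHG1 (0.17). Genes lower in LS180 than in HCT116 numbered 522 with 1 CPM, 576 with RLE, 343 with ribosomal protein scaling, 435 with total library size and 365 to 935 on leaving out 1 library; higher ones numbered 254, 116, 30 and 35 in the same order, 193 with DESeq2, 313 with no filter and 44 to 116 on leaving out 1. Of the genes at least 4-fold lower, those lower with siSTAU1 were 50 with DESeq2, 51 with an effective length offset and 52 to 92 on leaving out 1 library, those higher 40 to 58 on leaving out 1. For these changes the cause was not tested. A replicate block gave 4381 genes lower and 3038 higher at 2 h, and 1118 lower and 96 higher in LS180 than in HCT116. In LS180 same-numbered libraries correlated at r = 0.15, 0.16 and -0.21 across genes, so a pairing by number is not shown. Whether same-numbered libraries share a culture or preparation was not tested.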
